A study of Mus musculus with 12 samples.

Results

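The genes described here are type I interferon-stimulated genes, the genes that cells switch on when type I interferon reaches them. The list names 37 such genes of the mouse, and a gene entered when a probe set of the array was annotated to it. Of the 37 listed genes, 34 were measured, each by 1 probe set, among 19494 genes with a symbol on the arrays. The listed genes Ifi44, Ifi203 and Ddx60 were not analysed here. The rule itself uses no measured value, but the members were chosen with earlier results of these data known. Their shares and medians beside those of all genes are therefore descriptions.

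The study compared blood stem and progenitor cells with and without NFAT5, a transcription factor known for the response to hypertonic stress. The 12 arrays fell into 4 groups of 3, from Nfat5 fl/fl Vav-Cre donors (NFAT5-deficient) and Nfat5 +/+ Vav-Cre donors (wild-type). The groups were NFAT5-deficient hematopoietic stem cells (HSC), wild-type HSC, NFAT5-deficient multipotent progenitors (MPP) and wild-type MPP. Both genotypes carried the Vav-Cre transgene, which is active throughout the blood lineage, so the deletion is not confined to HSC and MPP. Marrow of these donors, of the CD45.2 background, had been given to irradiated wild-type recipients of the CD45.1 background. All cells were taken 13 weeks after that transplantation, so a radiation-injured host and a regenerating graft were common to all 4 groups. Donor cells were sorted from the LSK compartment, which lacks lineage markers and bears Sca-1 and Kit, HSC as CD48-negative and CD150-positive and MPP as CD48-positive and CD150-negative. The ages of the mice are not given in the labels. Arrays are called by the number in their title, 64, 70 and 76 for NFAT5-deficient and 66, 67 and 75 for wild-type, and each number occurs once in HSC and once in MPP. The labels do not say whether a number stands for 1 animal, so p-values measure the spread between these samples, which may be technical. RNA input was 300 pg of total RNA for each sample, amplified before labelling.

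Type I interferons bind a receptor shared by nearly all cells. Its kinases phosphorylate signal transducers, among them STAT2, which joins IRF9 to bind interferon-stimulated response elements in the promoters of the genes described here. Their products detect foreign nucleic acid, block viral translation and budding, attach the ubiquitin-like protein ISG15 to other proteins, and feed back on the receptor. In HSC, interferon exposure is known to drive quiescent cells into cycle, and stem cells keep a basal expression of some of these genes.

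The response element holds a core made of GAAA, 2 bases of any kind and GAAA again, which was searched on both strands in the 250 bases before the gene's start in the RefSeq promoters of mouse build GRCm38.p6. Of the 34 measured members, 24 had a promoter in that table, and 11 of these (45.8%) held the core: Ifit1, Ifit3, Ifit3b, Isg15, Oas1a, Oas1g, Oas3, Stat2, Rsad2, Bst2 and Trim30a. Among all 15683 array genes with a promoter in the table, 3.47% held it, and among all 32851 promoters of the table, 2.98% did. A match describes letters and is no evidence of binding, and a promoter without these letters says nothing about the factor. Below are the promoters of the members that held the core and had one of the smallest unadjusted p in a genotype comparison. They show where the letters of the core lie, and whether STAT2 and IRF9 act there was not tested. Capitals mark the core, which lies on the opposite strand and therefore reads TTTC, 2 bases and TTTC on the plus strand as printed, 5′ to 3′.
Ifit1, chr19:34640639-34640888, plus strand: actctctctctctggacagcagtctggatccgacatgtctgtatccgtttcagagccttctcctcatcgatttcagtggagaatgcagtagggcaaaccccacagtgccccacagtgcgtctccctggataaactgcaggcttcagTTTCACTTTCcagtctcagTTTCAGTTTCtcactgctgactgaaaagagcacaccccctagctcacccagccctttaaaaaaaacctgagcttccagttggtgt
Ifit3b, chr19:34607707-34607956, plus strand: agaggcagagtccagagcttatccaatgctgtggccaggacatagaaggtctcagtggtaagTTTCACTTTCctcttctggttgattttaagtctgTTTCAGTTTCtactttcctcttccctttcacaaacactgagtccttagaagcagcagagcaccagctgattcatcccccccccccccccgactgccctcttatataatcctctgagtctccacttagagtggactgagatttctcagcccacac
Stat2, chr10:128270248-128270497, plus strand: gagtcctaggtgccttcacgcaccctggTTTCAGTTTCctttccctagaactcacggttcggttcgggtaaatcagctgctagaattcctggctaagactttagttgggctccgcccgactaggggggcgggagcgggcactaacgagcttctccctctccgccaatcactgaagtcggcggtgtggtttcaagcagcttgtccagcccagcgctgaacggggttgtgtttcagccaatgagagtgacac
In Ifit1, which encodes a binder of viral RNA caps, 2 cores began 85 and 104 bases before the start. In its relative Ifit3b, 2 cores began 154 and 188 bases before it. In Stat2 a single core began 222 bases before the start.

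Values are deposited log2 intensities, so a difference of 1 is a doubling. Nfat5, the targeted gene, read 8.24 ± 0.58 in NFAT5-deficient HSC and 9.49 ± 0.29 in wild-type HSC, and 7.92 ± 0.42 in NFAT5-deficient MPP and 8.58 ± 0.41 in wild-type MPP (SD, n = 3 each). Its difference passed in neither population, at -1.25 in HSC (limma adjusted p = 0.772) and -0.66 in MPP (0.896). In HSC 0 genes of the array passed for genotype. The HSC groups of Nfat5 did not overlap, at 8.76, 8.34 and 7.62 on NFAT5-deficient arrays, against 9.81, 9.38 and 9.27 on wild-type arrays (limma unadjusted p = 0.00498). Of all genes, 6.61% lay wholly lower in that comparison. In MPP its groups overlapped, and no source used here places its probe set relative to the deleted part. Slamf1, which encodes the gate marker CD150, averaged 10.08 in NFAT5-deficient HSC and 6.46 in NFAT5-deficient MPP, and Cd48 averaged 6.503 in those HSC and 10.28 in those MPP. As a gauge of background, the 90th percentile of the mean levels of 1091 olfactory receptor genes, 6.038, is used, and a gene whose group mean lay under it is called dim. Of 9 neutrophil marker genes, 5 lay under that level by their mean over the 12 arrays, and 8 read lower in NFAT5-deficient HSC. Their mean was 5.42, 5.53 and 5.51 on NFAT5-deficient HSC arrays, against 6.88, 7.38 and 5.52 on wild-type HSC arrays 66, 67 and 75. In MPP it was 6.49, 6.62 and 6.02 on NFAT5-deficient arrays, against 6.94, 7.02 and 5.96 on wild-type arrays. The 7 plasmacytoid dendritic cell markers averaged 6.94 to 7.04 on NFAT5-deficient HSC arrays and 7.11 to 7.15 on wild-type HSC arrays. Of these markers, 5 read lower and 2 higher in NFAT5-deficient HSC, and 0 passed. Tcf4 averaged 10.18 in NFAT5-deficient HSC and 10.63 in wild-type HSC. The 2 higher ones were Siglech, dim in both groups at 6.001 against 5.949, and Ly6d at 7.305 against 7.289. The list mean therefore does not show a shift common to these markers. The part of either marker list in the results below was not tested. In bulk samples, fewer cells of a type and less RNA per cell cannot be told apart.

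Most of the members had a level above the olfactory receptor gauge, and the genotype groups interleaved for most of them. The members dim in all 4 groups were Ifit3b, Oas3, Oasl1, Mx1 and Irf7, 5 of 34, against 37% of all genes by their mean over the arrays. A further 3 were dim in some groups: Mx2 in NFAT5-deficient HSC, Rsad2 in both NFAT5-deficient groups, and Ifi27l2a in wild-type HSC. A dim level here is no proof that the gene was silent, and the size of a difference at that level is not resolved.

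**Figure D1:**
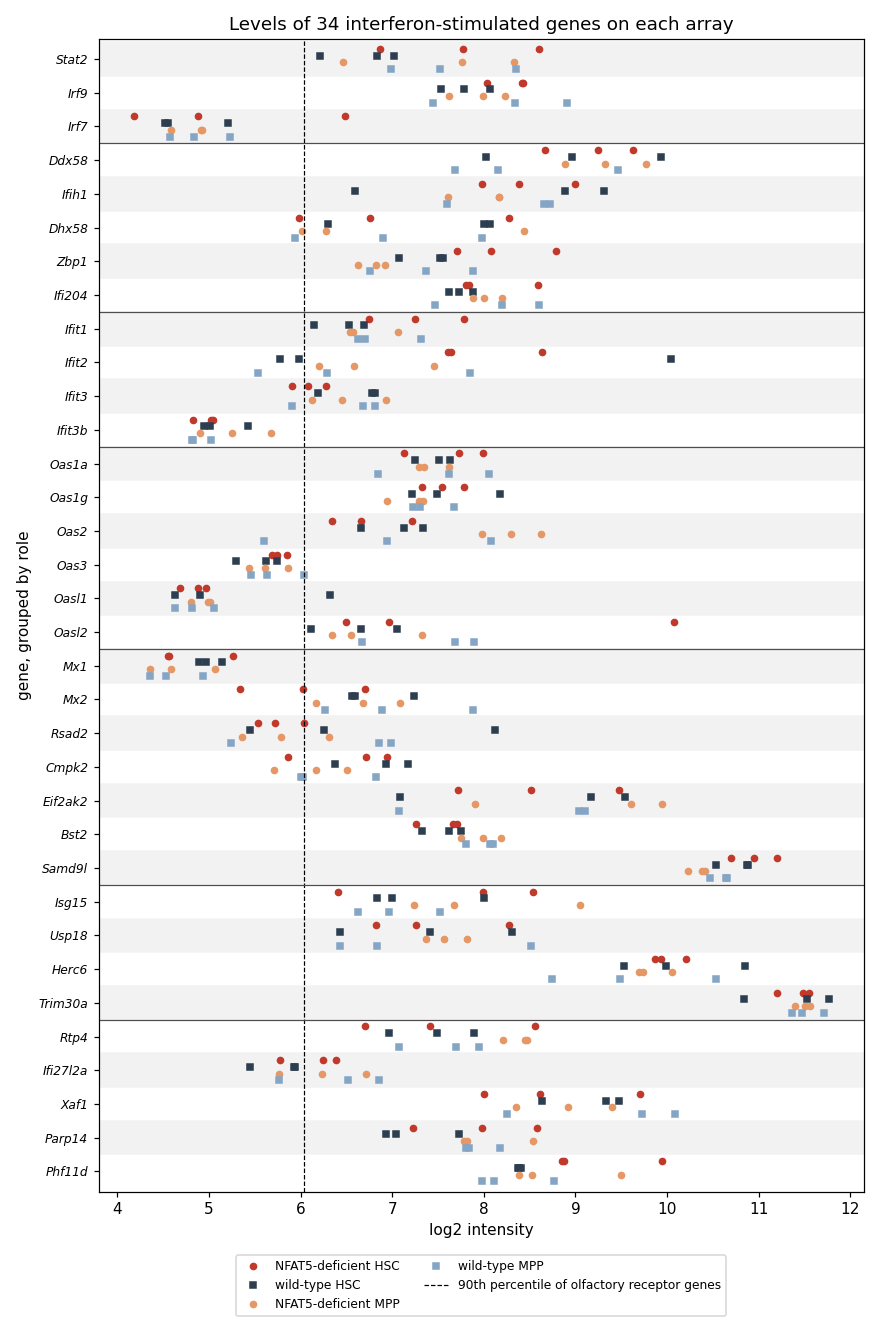
Level of each of the 34 interferon-stimulated genes on each of the 12 arrays (x axis, log2 intensity), 1 gene per row, grouped by role from transcription factors at the top to other induced genes at the bottom. Circles are NFAT5-deficient and squares wild-type arrays of HSC and MPP, and the dashed line is the 90th percentile of olfactory receptor genes at 6.038, which Ifit3b, Oas3, Oasl1, Mx1 and Irf7 did not exceed in any group mean. Levels of different rows come from different probe sets and are not comparable with each other.

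The levels are given as the range of the 4 group means. Among the transcription factors of the pathway, Stat2 had group means of 6.69 to 7.75, its partner Irf9 of 7.79 to 8.29, and Irf7, the factor that amplifies interferon production, of 4.76 to 5.18. The sensors were Ddx58 (RIG-I, 8.44 to 9.33) and Ifih1 (MDA5, 7.98 to 8.45), both receptors of viral RNA. With them stood their regulator Dhx58 (LGP2, 6.91 to 7.45), the Z-form nucleic acid sensor and necroptosis gene Zbp1 (6.79 to 8.19) and the interferon-inducible DNA-binding protein gene Ifi204 (7.75 to 8.09). Of the IFIT family, Ifit1 had group means of 6.46 to 7.26, Ifit2 of 6.56 to 7.96, Ifit3 of 6.09 to 6.59 and Ifit3b of 4.89 to 5.27. Some enzymes of the oligoadenylate synthetase family make the activator of RNase L. In this family Oas1a had group means of 7.42 to 7.62, Oas1g of 7.19 to 7.63 and Oas2 of 6.74 to 8.30. Oas3 had 5.56 to 5.76, Oasl1 4.83 to 5.28 and Oasl2 6.60 to 7.85. Near-identical copies such as Ifit3 and Ifit3b, Oas1a and Oas1g, and the relatives of Ifi204 may share probe signal, so their separate values are uncertain.

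The other antiviral effectors were the dynamin-like GTPase genes Mx1 (4.61 to 5.002) and Mx2 (6.02 to 7.01), Rsad2 (viperin, 5.76 to 6.61) and the mitochondrial nucleotide kinase gene Cmpk2 (6.13 to 6.83). They also held Eif2ak2 (PKR, which halts translation, 8.41 to 9.15), Bst2 (tetherin, which holds budding virions at the membrane, 7.54 to 7.99) and Samd9l, an antiviral inhibitor of translation (10.34 to 10.95). In the ISG15 and ubiquitin group stood Isg15 itself (7.04 to 7.99), Usp18, which removes ISG15 and restrains the receptor (7.26 to 7.58), the ISG15 ligase gene Herc6 (9.59 to 10.12) and the TRIM family gene Trim30a (11.38 to 11.52). The remaining members were Rtp4 (7.45 to 8.38), Ifi27l2a (5.77 to 6.38), Xaf1, named for binding the apoptosis inhibitor XIAP (8.78 to 9.36), the ADP-ribosyltransferase gene Parp14 (7.24 to 8.05) and Phf11d (8.29 to 9.22).

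By rule, the 3 members with the highest mean over the arrays are given in full. Trim30a read 11.48, 11.20 and 11.56 on NFAT5-deficient HSC arrays 64, 70 and 76, against 10.85, 11.77 and 11.53 on wild-type HSC arrays 66, 67 and 75. In MPP it read 11.57, 11.40 and 11.51 on NFAT5-deficient arrays, against 11.36, 11.72 and 11.47 on wild-type arrays. The groups overlapped in both populations. Samd9l read 10.95, 11.20 and 10.70 on NFAT5-deficient HSC arrays, against 10.88, 10.88 and 10.53 on wild-type HSC arrays. In MPP it read 10.23, 10.41 and 10.38 on NFAT5-deficient arrays, against 10.47, 10.65 and 10.65 on wild-type arrays. In MPP, then, the NFAT5-deficient values all lay below the wild-type ones, by -0.25 on average (95% confidence interval -0.60 to 0.10, limma adjusted p = 0.899). Herc6 read 10.21, 9.86 and 9.93 on NFAT5-deficient HSC arrays, against 10.85, 9.99 and 9.53 on wild-type HSC arrays. In MPP it read 9.74, 10.05 and 9.69 on NFAT5-deficient arrays, against 10.54, 9.49 and 8.75 on wild-type arrays, so the NFAT5-deficient values lay inside the wild-type range there.

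The first question was whether the loss of NFAT5 altered these genes in HSC. Of the members, 20 read higher and 14 lower in NFAT5-deficient HSC, and their median difference was 0.13, against -0.05 over all genes. No member passed limma's test at an adjusted p under 0.05 (0 of 34), and no gene of the array did either (0%). At an unadjusted p under 0.05 there were 2 members, Ifit1 and Zbp1, which is 5.88% of the 34, against 6.18% of all genes. The lower and higher ends of the list were Rsad2 at -0.85 and Oasl2 at 1.24. The share with a higher value was 58.8% of the members and 41.6% of all genes. The median rested on single arrays, since leaving out NFAT5-deficient HSC array 70 gave -0.006 and leaving out wild-type HSC array 75 gave 0.185.

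The members whose HSC groups did not overlap were Ifit1, Zbp1 and Phf11d, all higher in NFAT5-deficient cells, which is 3 of 34 (8.82%), against 3.55% of all genes in that direction. No member lay wholly lower, against 6.61% of all genes. Ifit1 read 7.79, 6.75 and 7.25 on NFAT5-deficient HSC arrays 64, 70 and 76, against 6.15, 6.69 and 6.53 on wild-type HSC arrays 66, 67 and 75. The gap between the groups was the small step between NFAT5-deficient array 70 and wild-type array 67. The difference was 0.81 (SE 0.29, 95% interval 0.16 to 1.46, limma adjusted p = 0.779).

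Zbp1 read 7.71, 8.08 and 8.79 on NFAT5-deficient HSC arrays, against 7.56, 7.07 and 7.52 on wild-type HSC arrays. NFAT5-deficient array 76 stood highest, and array 64 lay just above the wild-type values. Its difference was also 0.81 (SE 0.34, interval 0.06 to 1.55, limma adjusted p = 0.792), and without NFAT5-deficient array 76 it was 0.51. Phf11d read 8.87, 9.95 and 8.85 on NFAT5-deficient HSC arrays, against 8.38, 8.38 and 8.41 on wild-type HSC arrays, which were nearly equal. The difference was 0.84 (SE 0.39, limma adjusted p = 0.809), and without NFAT5-deficient array 70 it was 0.47.

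Stat2, the signal transducer whose promoter is printed above, had the next smallest p. It read 7.78, 8.61 and 6.86 on NFAT5-deficient HSC arrays, against 6.22, 6.84 and 7.02 on wild-type HSC arrays. NFAT5-deficient array 76 lay inside the wild-type range, so the groups overlapped. The difference was 1.06 (SE 0.56, interval -0.18 to 2.29, limma adjusted p = 0.852), and it was 0.63 without array 70 and 1.499 without array 76. Oasl2 had the largest difference of the list, but it came from 1 array: NFAT5-deficient array 64 read 10.08, against 6.495 and 6.97 on arrays 70 and 76 and 7.05, 6.66 and 6.11 on the wild-type HSC arrays.

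By role, the 3 transcription factors all had a higher value in NFAT5-deficient HSC, Irf7 by 0.42 and Irf9 by 0.50 beside Stat2. For Irf7 array 70 read 6.48, whereas arrays 64 and 76 read 4.18 and 4.88, against 4.55, 4.52 and 5.20 on wild-type HSC arrays. Of the 5 sensors 4 were higher, with Ddx58 at 0.21, Ifih1 at 0.19 and Ifi204 at 0.33 beside Zbp1, and Dhx58 at -0.45. Of the 4 IFIT genes 2 were higher, Ifit2 by 0.69, whereas Ifit3 (-0.51) and Ifit3b (-0.17) were lower. The 6 genes of the oligoadenylate synthetase family were split 3 and 3. Beside Oasl2, Oas1a was at 0.15, Oas3 at 0.20, Oas1g at -0.08, Oas2 at -0.30 and Oasl1 at -0.44. None of these values passed the test.

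Of the 7 other effectors 6 were lower in NFAT5-deficient HSC, with Mx1 at -0.21, Mx2 at -0.78, Cmpk2 at -0.32, Eif2ak2 at -0.03 and Bst2 at -0.02 beside Rsad2, and only Samd9l was higher, by 0.19. For Rsad2 the wild-type mean was set by array 75 at 8.12, against 5.45 and 6.26 on the other wild-type HSC arrays. Isg15 (0.37), Usp18 (0.07) and Trim30a (0.03) were higher, and Herc6 (-0.12) was lower. Of the remaining members, Rtp4 (0.11), Ifi27l2a (0.36) and Parp14 (0.70) were higher beside Phf11d, and Xaf1 (-0.37) was lower. None of these values passed the test, and the role groups were made after the values had been seen.

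**Figure D2:**
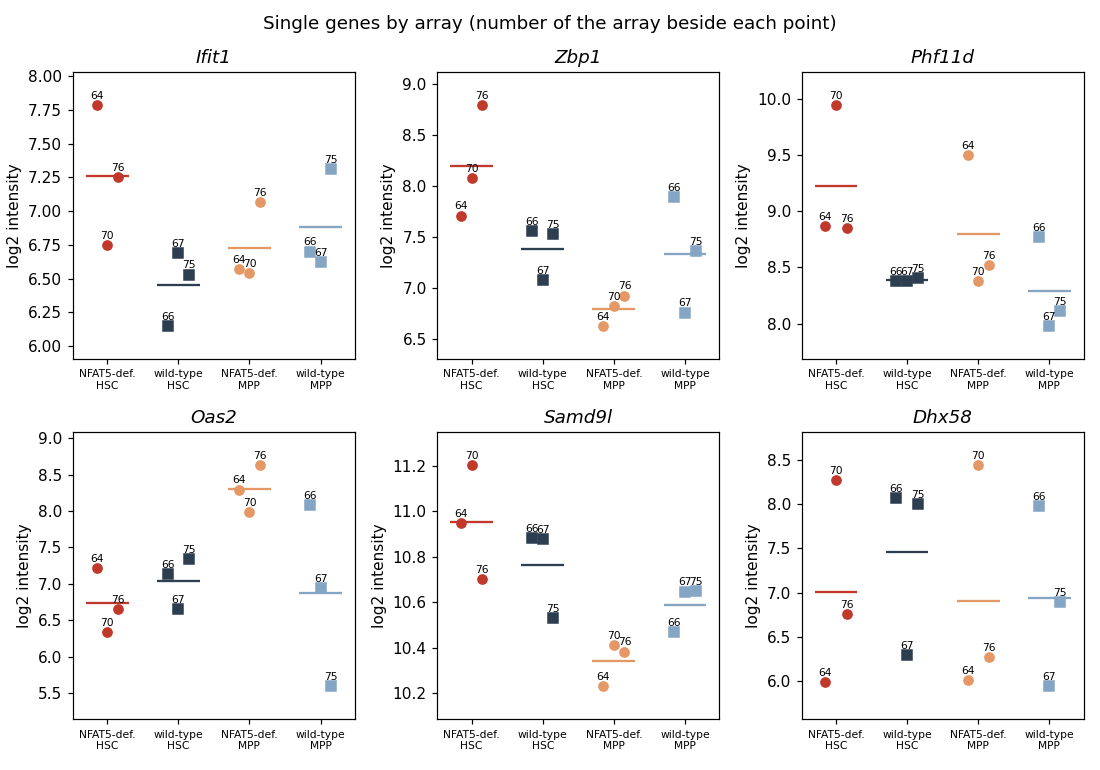
Level (y axis, log2 intensity) of Ifit1, Zbp1, Phf11d, Oas2, Samd9l and Dhx58 on each array, with the array number beside each point and a bar at each group mean, NFAT5-deficient left of wild-type in HSC and then in MPP. Ifit1, Zbp1 and Phf11d lay higher on all NFAT5-deficient HSC arrays than on the wild-type HSC arrays, and Oas2 read 8.29, 7.98 and 8.63 on NFAT5-deficient MPP arrays.

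In MPP, 14 members read higher and 20 lower in NFAT5-deficient cells, with a median of -0.05, against -0.07 over all genes. Leaving out wild-type MPP array 67 gave 0.063, and leaving out wild-type MPP array 75 gave -0.083. Again 0 of 34 members passed, beside 1 of all genes (0.00513%), which is described with the wider pathway below. At an unadjusted p under 0.05 there was 1 member, Oas2, against 5.35% of all genes. Groups that did not overlap were found for Rtp4, higher (against 3.8% of all genes), and Samd9l, lower (against 8.84%).

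Oas2 read 8.29, 7.98 and 8.63 on NFAT5-deficient MPP arrays 64, 70 and 76, against 8.08, 6.94 and 5.60 on wild-type MPP arrays 66, 67 and 75. The NFAT5-deficient values were close together and the wild-type ones spread over more than 2 log2 units, with array 66 above NFAT5-deficient array 70. The difference was 1.43 (SE 0.52, interval 0.29 to 2.57, limma adjusted p = 0.896), and it was 0.79 without wild-type MPP array 75. In HSC the difference of Oas2 was -0.30.

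Rtp4 read 8.45, 8.47 and 8.21 on NFAT5-deficient MPP arrays, against 7.07, 7.69 and 7.95 on wild-type MPP arrays. These groups did not overlap, and the difference was 0.81 (SE 0.44, limma adjusted p = 0.896). In HSC its groups overlapped, at 6.70, 8.56 and 7.41 on NFAT5-deficient arrays, against 6.96, 7.89 and 7.49 on wild-type arrays. Ddx58 read 8.89, 9.77 and 9.32 on NFAT5-deficient MPP arrays, against 7.69, 9.47 and 8.15 on wild-type MPP arrays. Wild-type array 67 lay inside the NFAT5-deficient range, and the difference was 0.89 (SE 0.55, limma adjusted p = 0.899). Leaving out wild-type MPP array 66 gave 0.52, and leaving out array 67 gave 1.41. Ifit3b, dim in every group, read 5.25, 4.90 and 5.68 on NFAT5-deficient MPP arrays, against 5.03, 4.81 and 4.82 on wild-type MPP arrays, a difference of 0.39 (limma adjusted p = 0.896) whose size is not resolved and which was 0.19 without NFAT5-deficient array 76.

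By role, the 3 transcription factors had a lower value in NFAT5-deficient MPP, within -0.28 to -0.07, and so had 4 of the 5 sensors, with Zbp1 at -0.54, Ifih1 at -0.35, Ifi204 at -0.06 and Dhx58 at -0.03. Of the IFIT genes Ifit2 (0.19) and Ifit3 (0.04) were higher with Ifit3b, and Ifit1 was at -0.15. The other genes of the oligoadenylate synthetase family ran from -0.68 for Oasl2 to 0.10 for Oasl1. Among the effectors Eif2ak2 (0.74) and Mx1 (0.06) were higher and the other 5 lower, with Rsad2 at -0.54 and Mx2 at -0.37. Isg15 had a value of 0.95, from 7.24, 9.05 and 7.68 on NFAT5-deficient MPP arrays, against 7.52, 6.97 and 6.63 on wild-type MPP arrays, which overlapped. Usp18 (0.33) and Herc6 (0.24) were also higher, as were Phf11d (0.51) and Parp14 (0.11), whereas Xaf1 was at -0.47 and Ifi27l2a at -0.14.

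**Figure D3:**
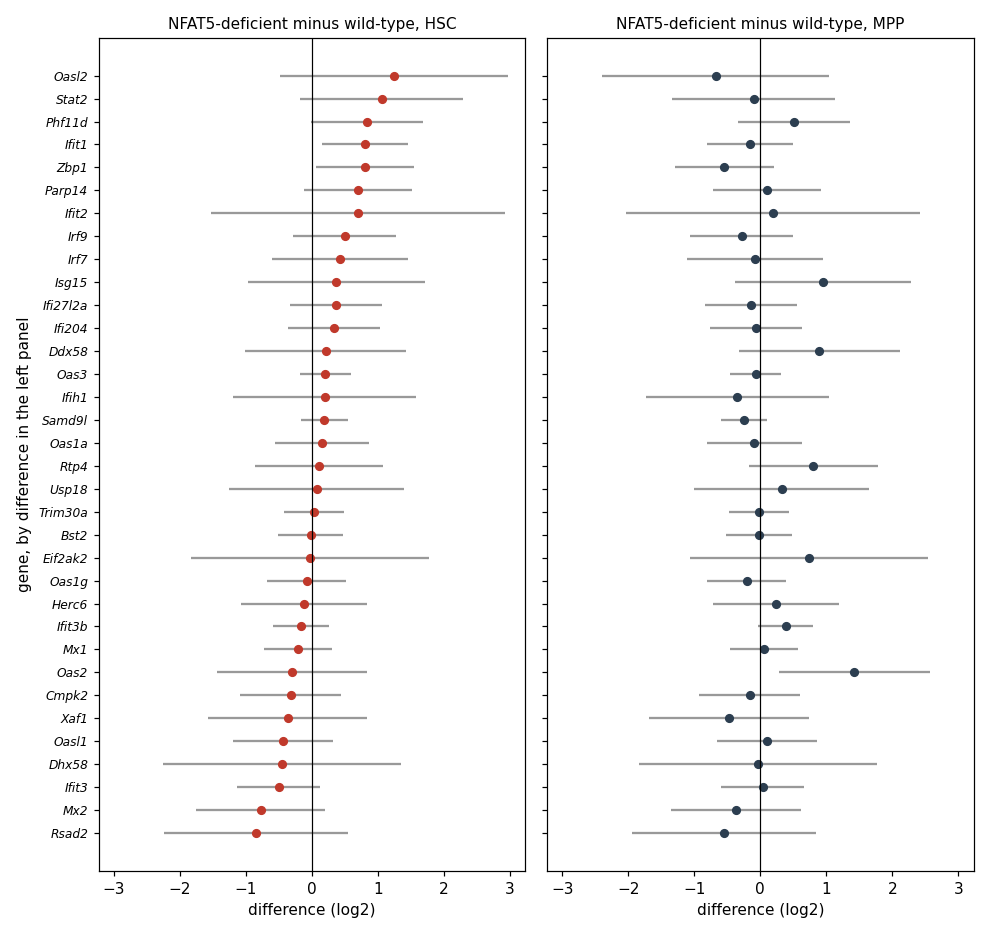
Difference between NFAT5-deficient and wild-type cells (x axis, log2, NFAT5-deficient minus wild-type) for each of the 34 genes in HSC (left) and MPP (right), with 95% confidence intervals from limma. No gene passed the test in either panel, and the values ran from -0.85 to 1.24 in HSC and from -0.68 to 1.43 in MPP.

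Averaged over HSC and MPP, 22 members read higher and 12 lower in NFAT5-deficient cells, with a median of 0.11, against -0.06 over all genes. The median was 0.05 without wild-type HSC array 67. No member passed (0 of 34, with 0% of all genes), and 1 member had an unadjusted p under 0.05, against 7.11% of all genes. That member was Phf11d, which was 0.67 higher (SE 0.27, limma adjusted p = 0.69). The genotype difference in HSC minus that in MPP, the interaction, passed for 0 members and for 0% of all genes. Its unadjusted p was under 0.05 for Zbp1 (1.35), Oas2 (-1.73) and Ifit1 (0.96), each with a limma adjusted p of 0.999, which is 8.82% of the members, against 4.19% of all genes. The sign of the genotype difference in the transcription factors, positive in HSC and negative in MPP, was thus not shown to differ between the populations.

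The intervals say how much the arrays left undecided. The 95% interval of a genotype difference within a population reached a median of 0.83 log2 units to each side for the members, against 0.47 for all genes. The whole interval lay between a halving and a doubling for 8 of 34 members in HSC and 15 in MPP. For the other members a doubling or a halving lay inside the interval, so a missing call does not show equal levels.

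The second question was whether HSC and MPP differed in these genes. In NFAT5-deficient cells 18 members read higher and 16 lower in HSC than in MPP, with a median of 0.07, against 0.07 over all genes. That median was -0.013 without NFAT5-deficient MPP array 64 and 0.168 without NFAT5-deficient HSC array 76. No member passed (0 of 34), against 0.21% of all genes. An unadjusted p under 0.05 was found for 3 members (8.82%), Zbp1, Samd9l and Oas2, against 7.9% of all genes. Groups that did not overlap numbered 5: Zbp1, Samd9l and Ifit2 higher in HSC (3 of 34, against 11.5% of all genes) and Oas2 and Bst2 lower (2 of 34, against 5.39%).

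Zbp1 had the smallest p of the members in this comparison. It read 7.71, 8.08 and 8.79 on NFAT5-deficient HSC arrays 64, 70 and 76, against 6.63, 6.83 and 6.92 on NFAT5-deficient MPP arrays. The difference was 1.40 (SE 0.34, interval 0.66 to 2.14, limma adjusted p = 0.245). In wild-type cells Zbp1 read 7.56, 7.07 and 7.52 in HSC, against 7.89, 6.76 and 7.36 in MPP, a difference of 0.05. Samd9l, with the array values given above, was 0.61 higher in NFAT5-deficient HSC than in NFAT5-deficient MPP (SE 0.16, limma adjusted p = 0.29) and 0.17 higher in wild-type HSC. Oas2 read 7.21, 6.34 and 6.66 on NFAT5-deficient HSC arrays, all below the NFAT5-deficient MPP arrays at 8.29, 7.98 and 8.63, with a difference of -1.56 (SE 0.52, limma adjusted p = 0.457). Ifit2 read 7.61, 7.64 and 8.63 on NFAT5-deficient HSC arrays, against 7.46, 6.59 and 6.20 on NFAT5-deficient MPP arrays, a difference of 1.21 with an interval of -1.01 to 3.44.

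In wild-type cells 18 members were also higher and 16 lower in HSC than in MPP, with a median of 0.07, against 0.05 over all genes. No member passed (0 of 34, against 0.164% of all genes), and none had an unadjusted p under 0.05, against 8.9% of all genes. The median was -0.168 without wild-type HSC array 75. No member lay wholly higher in HSC, against 7.54% of all genes, and Parp14 and Bst2 lay wholly lower, against 4.74%.

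Bst2 read 7.75, 7.32 and 7.62 on wild-type HSC arrays 66, 67 and 75, against 8.07, 8.10 and 7.80 on wild-type MPP arrays, a difference of -0.43 (SE 0.23, limma adjusted p = 0.636). It read 7.70, 7.67 and 7.26 on NFAT5-deficient HSC arrays, against 7.99, 8.19 and 7.75 on NFAT5-deficient MPP arrays, again a difference of -0.43. Bst2 was thus lower in HSC than in MPP without overlap in both genotypes. Averaged over the genotypes its difference was -0.43 (SE 0.16, limma adjusted p = 0.324). Parp14 read 7.04, 7.73 and 6.93 on wild-type HSC arrays, against 7.81, 7.83 and 8.18 on wild-type MPP arrays, a difference of -0.70 (SE 0.37, limma adjusted p = 0.636). In NFAT5-deficient cells its values overlapped, at 8.58, 7.98 and 7.23 in HSC, against 7.78, 8.54 and 7.82 in MPP. Ifi27l2a read 5.94, 5.45 and 5.93 on wild-type HSC arrays, below the dim level, against 6.86, 6.51 and 5.76 on wild-type MPP arrays, a difference of -0.60 (limma adjusted p = 0.631). Leaving out wild-type MPP array 75 gave -0.91, and leaving out array 66 gave -0.36.

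Averaged over the genotypes, 17 members were higher and 17 lower in HSC than in MPP, with 0 calls among them, against 0.61% of all genes. The 3 members with an unadjusted p under 0.05 (8.82%, against 12.2% of all genes) were Samd9l at 0.39 (limma adjusted p = 0.199), Zbp1 at 0.72 (0.265) and Bst2. The 95% interval lay within a doubling or halving for 19 of the 34 members in this comparison.

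**Figure D4:**
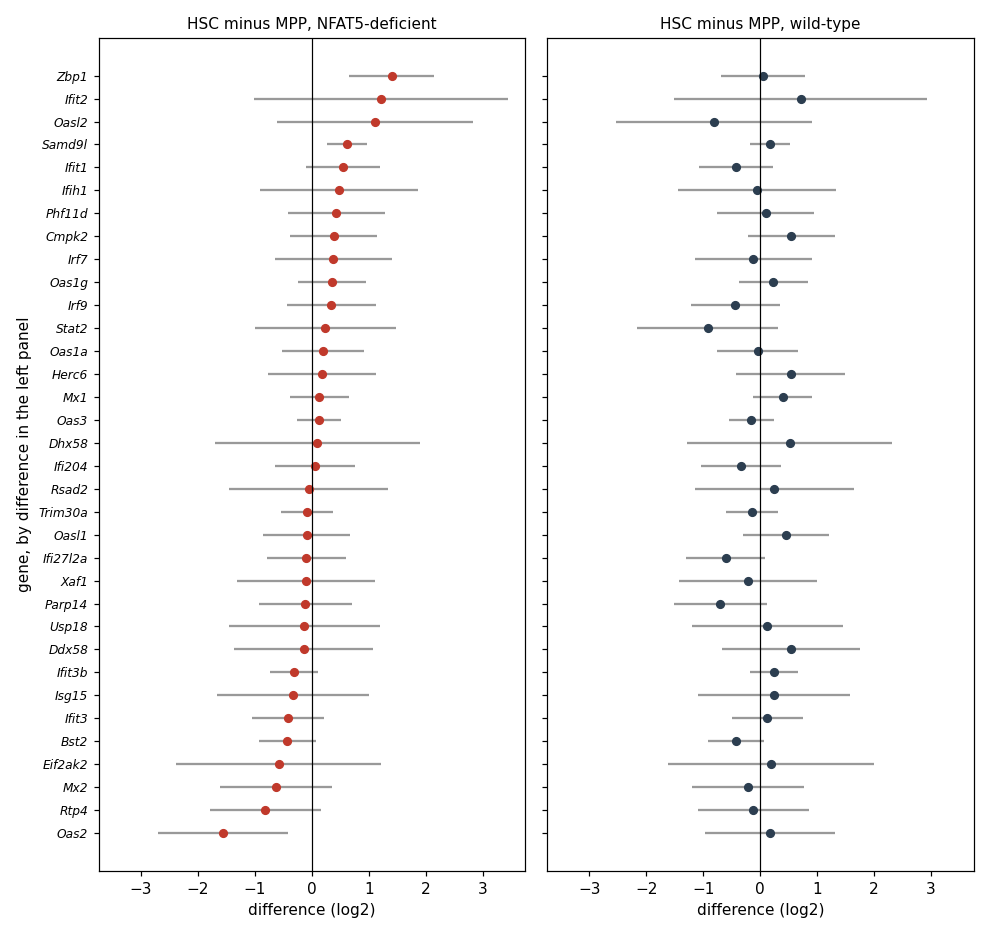
Difference between HSC and MPP (x axis, log2, HSC minus MPP) for each of the 34 genes in NFAT5-deficient cells (left) and wild-type cells (right), with 95% confidence intervals from limma, ordered by the left panel. Zbp1 at 1.40 and Oas2 at -1.56 were the ends of the NFAT5-deficient panel and read 0.05 and 0.17 in the wild-type panel.

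The members with and without the core are given side by side, without a test. In HSC the 11 members with the core had a median genotype difference of 0.03 (6 higher, 5 lower), and the 13 without it 0.19 (8 higher, 5 lower). In MPP the medians were -0.07 for both, with 3 higher and 8 lower among members with the core and 6 higher and 7 lower among those without it. Between HSC and MPP, averaged over the genotypes, the median was -0.04 with the core (4 higher, 7 lower in HSC) and 0.20 without it (10 higher, 3 lower). In NFAT5-deficient cells that comparison gave -0.05 with the core (5 higher, 6 lower) and 0.37 without it (9 higher, 4 lower), and in wild-type cells -0.04 (5 higher, 6 lower) and 0.17 (8 higher, 5 lower).

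Interferon-stimulated genes varied more between arrays of a group than the array's genes at large. The median SD within groups was 0.48 for the 34 members and 0.25 for all genes. Among genes with a mean level of 7 to 9, where the spread is wide in general, it was 0.70 for 19 members and 0.49 for 5371 genes. The widest were Ifit2 (1.41), Dhx58 (1.14), Eif2ak2 (1.13) and Oasl2 (1.08), and the narrowest was Samd9l (0.18). Ifit2 read 5.99, 5.78 and 10.04 on wild-type HSC arrays 66, 67 and 75, and Eif2ak2 read 9.04, 9.10 and 7.08 on wild-type MPP arrays 66, 67 and 75.

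Once group means were removed, the residuals of 2 members correlated on average at 0.008 over 561 pairs, against 0.016 over pairs of all genes, from 12 arrays whose 4 group means had been taken out. Of the pairs, 45 lay above 0.5 and 57 below -0.5. The closest were Ifit3 with Ifi27l2a (0.907), Oas2 with Ifi27l2a (0.858) and Isg15 with Dhx58 (0.816). These values describe the same 12 arrays and carry no test. By array, the median deviation of the 34 members from their own means ran from -0.20 on wild-type MPP array 75 (-0.02 over all genes) to 0.09 on wild-type MPP array 66 (0.05 over all genes). Wild-type HSC array 67 stood at -0.18, against -0.01 over all genes.

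Within HSC, NFAT5-deficient array 70 was the highest of the 6 arrays for 10 of 34 members (29.4%, against 15.5% of all genes). These were Isg15, Oas1a, Mx1, Irf7, Irf9, Stat2, Rtp4, Dhx58, Samd9l and Phf11d. Wild-type HSC array 75 was also the highest for 10 members (29.4%, against 21.4% of all genes), among them Ifit2, Oas2, Mx2, Usp18, Rsad2, Ifih1, Ddx58 and Eif2ak2. Different members thus peaked on arrays of different genotype. Wild-type HSC array 67 was the highest for 1 member (2.94%, against 14.8% of all genes) and the lowest for 8 (23.5%, against 18.6%).

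**Figure D5:**
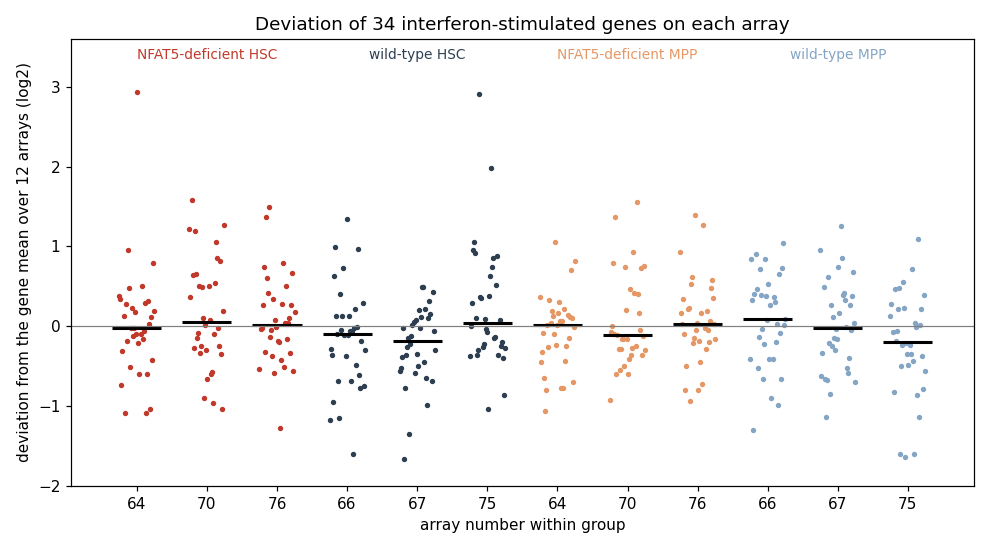
Deviation of each of the 34 genes from its own mean over the 12 arrays (y axis, log2), 1 column per array, NFAT5-deficient left of wild-type within HSC and then MPP, with a bar at each array's median. The medians lay between -0.20 and 0.09, whereas single genes reached far to both sides on most arrays.

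The wider pathway was read from lists of ligand, signalling, sensing and further interferon-stimulated genes. Of 16 measured type I interferon genes, 8 of them under the dim level by their mean over the arrays, 5 read higher and 11 lower in NFAT5-deficient HSC, 0 passed in any comparison, and the smallest p in HSC was that of Ifna14 (-0.21, limma adjusted p = 0.869). Among 12 receptor and signalling genes the NFAT5-deficient HSC value was higher for 3 and lower for 9, and 0 passed in any comparison. The smallest p there was that of Irf1, an interferon-induced transcription factor, at 1.27 (limma adjusted p = 0.792). Of 15 induction and sensing genes, 8 read higher and 7 lower in NFAT5-deficient HSC, and 0 passed for genotype.

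Calls appeared in the sensing list between populations. Tlr7, which encodes an endosomal receptor of single-stranded RNA, fell by 2.90 in HSC relative to MPP, averaged over the genotypes (SE 0.43, limma adjusted p = 0.0127). It read 4.50, 4.9996 and 4.54 in NFAT5-deficient HSC and 4.46, 4.28 and 4.64 in wild-type HSC, all below the dim level, against 7.25, 6.35 and 8.54 in NFAT5-deficient MPP and 7.90, 6.18 and 8.59 in wild-type MPP. Its size is therefore not resolved at the low end. Without NFAT5-deficient HSC array 70 and wild-type HSC array 66 together, its adjusted p was 0.0663, the highest of 20 alternative settings, which began at 0.00467. With the array number as a replicate block it was 0.0658, and the call was kept under the other 18 settings. Sting1, the adaptor of cytosolic DNA sensing, fell by 1.21 (limma adjusted p = 0.0496). It was called under 6 of 21 alternative settings, with adjusted p from 0.0212 to 0.169, so that call is at the edge of the threshold.

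Of 43 further interferon-stimulated genes, 26 read higher and 17 lower in NFAT5-deficient HSC, with 0 calls, and 21 read higher and 22 lower in NFAT5-deficient MPP, with 1 call. That gene was Ms4a4c, an interferon-inducible membrane protein gene of lymphoid and myeloid cells. It read 5.48, 5.21 and 5.10 on NFAT5-deficient MPP arrays 64, 70 and 76, against 6.94, 7.70 and 7.27 on wild-type MPP arrays 66, 67 and 75. It fell by 2.04 in NFAT5-deficient MPP (SE 0.20, limma adjusted p = 0.0124), to a level below the dim level. That SE draws on the spread of all 4 groups. The SD was 0.38 in wild-type MPP and 0.16 to 0.22 in the other groups, all of them dim. The groups were far apart, and the call was kept under 17 of 20 alternative settings, with adjusted p from 0.00466 to 0.431. It was lost without wild-type MPP array 75 (adjusted p = 0.0986), with only the MPP groups fitted (0.431), and without HSC arrays 70 (NFAT5-deficient) and 66 (wild-type) together (0.0723).

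In HSC Ms4a4c was below the dim level in both genotypes, at 5.09, 5.23 and 4.80 on NFAT5-deficient arrays, against 5.43, 5.28 and 5.10 on wild-type arrays. Its genotype difference there was -0.23, and the test of the difference between the populations gave 1.81 (limma adjusted p = 0.303). Ms4a4c also fell by 2.03 in wild-type HSC relative to wild-type MPP (limma adjusted p = 0.00265), a call lost with the array number as a replicate block (adjusted p = 0.0558) and with only the wild-type groups fitted (0.0932), and kept under 19 of 21 alternative settings. In NFAT5-deficient cells the same comparison gave -0.22 (limma adjusted p = 0.796).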

How the data were processed

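The deposited table held log2 intensities, 1 for each probe set on each array. RMA and limma are named in the submitters' processing notes, without version or role, and the sources used here give no genome build. The values deposited by the authors ran from 2.514 to 13.28. The platform annotation gave 1 symbol to 19527 of 22142 probe sets, several to 0 and none to 2615. For 33 genes with more than 1 probe set, that with the highest mean was kept, leaving 19494 genes. No signal over background, detection call or scan date was used, so no technical batch could be tested, and the number of arrays limits the precision.

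limma 3.58.1 in R 4.3.3 was fitted to the log2 values of all 12 arrays with 4 group means and an intensity trend in the variance prior. P-values were adjusted by the Benjamini-Hochberg method over all genes of each of 7 comparisons, with 0.05 as the threshold for a call. The fit was run on simulated data with independent noise for each gene and array. Noise shared between arrays or genes was not simulated, so that run does not vouch for the p-values given here. Members, lists and settings were chosen with earlier results of these data known, and the role groups after the values had been seen. Values on every array are given for the 4 members with the smallest unadjusted p in each genotype comparison, the 3 in each population comparison and the 3 with the highest mean. From the other lists, called genes are named, or else the gene with the smallest p in HSC for genotype; a few further members were named for their values. Promoters came from RefSeq, matched by Entrez gene identifier. Same-numbered HSC and MPP arrays had residual correlations of -0.014 to 0.064 over all genes, so the number was not used as a pairing. Figures come from matplotlib 3.10.9 in Python 3.11.15.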

Additional observations from a re-analysis of the deposited data

How the results depend on the processing

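Leaving out each array in turn, and changing the filter on dim genes, the variance prior, the groups fitted, the normalization, the array weights, the choice of probe set, the array-number block and a pair of HSC arrays that an earlier account of these data placed apart, left the number of called members at 0 in 149 of 149 counts. Such counts say little, since few genes of the array were called at all. For genotype the most were 3 of 19494 genes in HSC (without wild-type HSC array 75) and 6 in MPP (array weights). For HSC minus MPP averaged over genotypes they were 52 (replicate block) to 133 (array weights). The choice of probe set could not alter a member, as each had 1 probe set. The 14 differences of named members kept their sign and stayed uncalled in 299 of 299 alternative values. They were picked for a small p and refitted on mostly the same arrays, so kept signs are weak support. The members' medians were less stable. Leaving out 1 array at a time, the genotype median ran from -0.006 (without NFAT5-deficient array 70) to 0.185 in HSC and from -0.083 to 0.063 (without wild-type array 67) in MPP. For the interaction the range was -0.116, reached without wild-type HSC array 67, to 0.136. For HSC minus MPP in wild-type cells it was -0.168, reached without wild-type HSC array 75, to 0.112. The causes were not tested.

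With the array number as a replicate block, 0 members were called in each of the 5 comparisons that allow it, the smallest adjusted p being 0.235, and the consensus correlation for the genotype average was 0.045. Under the block Zbp1 stayed at 1.40 in NFAT5-deficient HSC against MPP (adjusted p = 0.254), Tlr7 had an adjusted p of 0.0658 and Sting1 of 0.169. Ms4a4c in wild-type HSC against MPP had 0.0558, and 0.0932 with only those groups fitted. The block could not be fitted within 1 population, where each number occurs once, and fits of only the groups compared do not exist for comparisons of all 4 groups. Alternatives for Ms4a4c, Tlr7 and Sting1 were added after seeing the data. With 3 arrays per group, the median interval of 0.83 to each side can hide a doubling or halving of most members within HSC and within MPP.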

Other observations

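Dhx58, the RIG-I-like regulator, had like levels in HSC and MPP arrays of the same number for most numbers, and unlike levels between numbers of 1 genotype. It read 5.98 in HSC and 6.01 in MPP for number 64, 8.27 and 8.44 for number 70, and 6.75 and 6.27 for number 76, all NFAT5-deficient. For the wild-type numbers it read 8.07 and 7.98 for 66, 6.30 and 5.94 for 67, and 7.997 and 6.89 for 75. The values fall into a high and a low cluster, so no correlation is given, and the gene was chosen after its values were seen. Some other members had wider gaps and some had smaller ones. The median gap between same-numbered arrays was 0.26 for Dhx58, against 1.46 for Ifit2, 1.36 for Oas2, 1.25 for Eif2ak2 and 1.11 for Stat2. Smaller gaps were found, among others, for Trim30a (0.07), Oasl1 (0.16), Ifit3b (0.17) and Oas3 (0.18). Of these, Oasl1, Ifit3b and Oas3 were dim in every group. Dhx58 thus did not have the smallest gap of the members. The gap of Oas2 exceeded its range over the HSC arrays, 0.99, but not its range over the MPP arrays, 3.03. A gap also holds any difference between HSC and MPP, which for Oas2 was -1.56 in NFAT5-deficient cells. A wide gap therefore does not show that arrays of the same number were unlike.

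Over the 34 members, the residuals of HSC and MPP arrays of the same number correlated at 0.340, 0.289 and 0.295 for NFAT5-deficient numbers 64, 70 and 76 and at 0.215, 0.526 and -0.043 for wild-type numbers 66, 67 and 75. Arrays of different numbers in the same genotype ran from -0.444 to 0.143. Residuals were taken from the mean of 3 arrays, so those of a group cancel out for each gene. Negative values between different numbers thus follow in part from positive values within numbers. Over all genes the same-number values were -0.014 to 0.064. These are descriptions across genes, which are not independent replicates, and whether a number marks 1 animal is not given in the labels.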
